A study of Mus musculus with 4 samples.

Results

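The 10 genes described here are switched on by the canonical Wnt pathway or feed back on it, and they were followed in mouse gastric organoids with and without a Smad4 knockout: Axin2, Nkd1, Notum, Rnf43, Znrf3, Lgr4, Lgr5, Sp5, Tcf7 and Sox9. They were chosen by name as Wnt targets and feedback regulators, and all 10 were found among the 45777 genes of the deposited tables. The Smad4 Knockout group held 2 libraries, from the lines CPS1 (Smad4 Knockout 1) and CPS4 (Smad4 Knockout 2), and the Control group held 2, from CPE (Control 1) and CPG (Control 2). All 4 lines, Control included, carry knockouts of Cdh1 and Trp53, so the groups differ by the Smad4 knockout on that background and neither is wild type. The lines are kept in supernatant of L-WRN cells, which secrete Wnt3a, R-spondin 3 and noggin. For the last 2 days before RNA extraction they grew without that supernatant and without serum, so the levels below were measured without the added Wnt source. The labels name a line for each library and do not say whether lines came from separate animals. The p-values thus set each difference between groups against the spread between these libraries, which may be technical, clonal or between animals.

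When a Wnt ligand binds a Frizzled receptor and its Lrp co-receptor, the complex that destroys beta-catenin is inhibited, and beta-catenin joins TCF/LEF factors on DNA to switch on target genes. Several targets act back on the pathway: Axin2 rebuilds the destruction complex, Nkd1 binds Dishevelled, Notum removes the lipid of the Wnt ligand, and Rnf43 and Znrf3 take Frizzled off the cell surface unless R-spondin bound to Lgr4 or Lgr5 clears them in turn. In the stomach, Lgr5 and Axin2 mark cells that renew the glands, and Smad4 is the common partner of the Smads activated by TGF-beta and BMP receptors.

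None of the 10 genes passed the test between the genotypes in edgeR at an adjusted p of 0.05, and none did in DESeq2; all 10 had passed the filter on low counts. Lgr4, the more abundant of the R-spondin receptors, had the smallest unadjusted p and was higher in both Smad4 Knockout libraries than in both Control libraries. Rnf43 was also higher in both, while the classical targets Axin2 and Sp5 were lower in both. The other 6 genes had overlapping groups, so the set showed no shared direction: 5 log2 fold changes of Smad4 Knockout over Control were positive and 5 negative, with a median of 0.11 against -0.0026 over all 18115 genes tested.

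**Figure D1:**
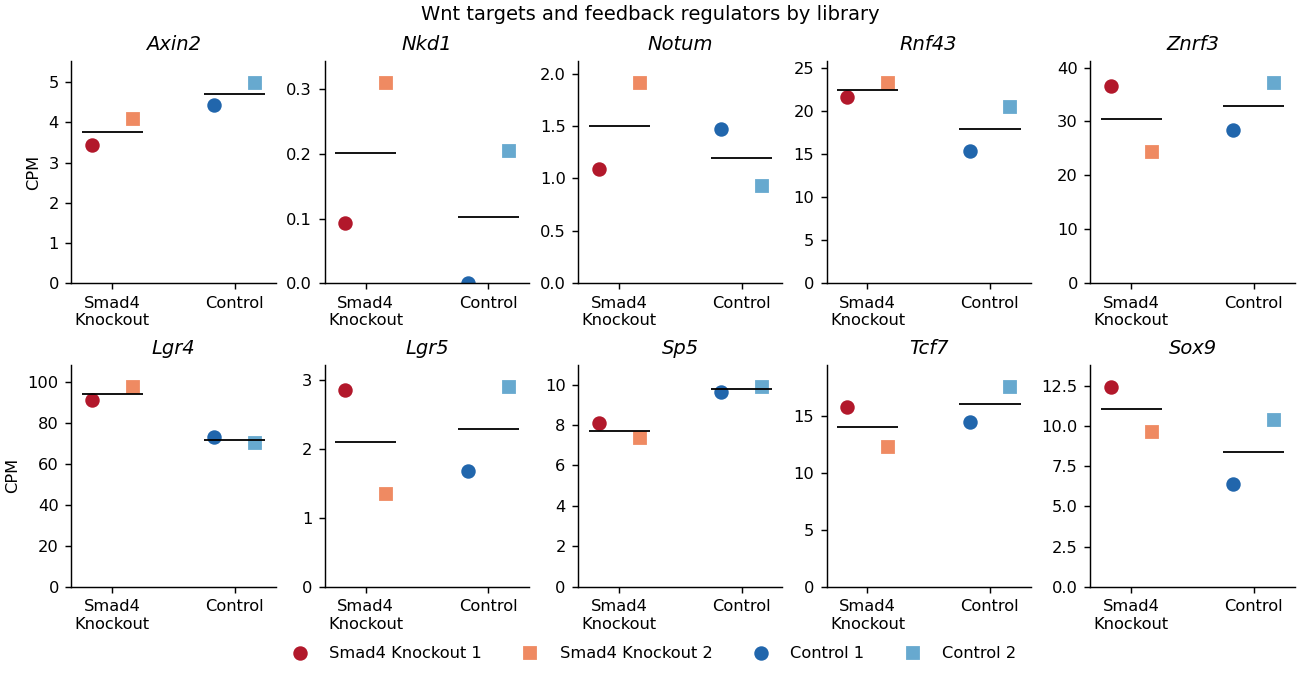
CPM (counts scaled to library size, linear axes from 0, a scale for each gene) of the 10 genes in each library, with Smad4 Knockout on the left and Control on the right of each panel; points are libraries and black lines are group means. Lgr4 and Rnf43 lie higher in both Smad4 Knockout libraries, Axin2 and Sp5 lie lower in both, and the other 6 genes overlap.

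Those counts have to be read against all genes. The edgeR quasi-likelihood test called 0 of 18115 genes at an adjusted p of 0.05, which is 0% of them, while 1153 genes, or 6.36%, had an unadjusted p under 0.05. DESeq2 called 131 of 19111 genes, or 0.685%. Leaving out Smad4 Knockout 1 took the edgeR count to 92; that fit has 1 Smad4 Knockout library, assumed to vary like the Control libraries. Groups did not overlap in 36.9% of all genes tested, 18.2% higher and 18.6% lower in Smad4 Knockout. Among the 10 genes, 1 had an unadjusted p under 0.05 and 4 did not overlap, 2 higher and 2 lower; these shares are near those of all genes and are not a result about the set.

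The libraries held between 85649781 and 99845702 counts. Smad4 itself, the targeted gene, had 54.4 and 52.9 CPM in the Smad4 Knockout libraries, against 94.5 and 103 CPM in the Control libraries. The level in Smad4 Knockout was lower in both libraries and was not near 0, with a log2 fold change of -0.88 and an adjusted p of 0.677 in edgeR and 4.99e-08 in DESeq2. The labels do not say which bases of the gene were disrupted, and reads outside them say nothing about the knockout. Summed epithelial markers had 9377 and 9320 CPM in Smad4 Knockout and 10128 and 9022 CPM in Control, all 6 of them above 1 CPM in every library. Of 11 gastric markers 9 had counts, with Pgc of chief cells and Atp4b of parietal cells at 0 in all libraries. Atp4a, also of parietal cells, had between 3.54 and 4.02 CPM in all libraries. The gastric markers summed to 360 and 391 CPM in Smad4 Knockout and 337 and 328 CPM in Control. Among them Gkn1, Tff1 and Tff2, secreted products of gastric mucous cells, were higher in both Smad4 Knockout libraries, with adjusted p-values of 0.677 each in edgeR and 0.00169, 0.0225 and 0.0360 in DESeq2. Gkn1 had 5.87 and 20.0 CPM in Smad4 Knockout, against 2.95 and 2.54 CPM in Control. Sox2, Atp4a, Muc6 and Cldn18 were instead lower in both Smad4 Knockout libraries by CPM. Gkn2 and Muc5ac overlapped, and neither edgeR nor DESeq2 called any of these genes. Sox2 had 27.7 and 30.9 CPM in Smad4 Knockout and 31.4 and 36.2 CPM in Control. Cldn18, a tight-junction gene of stomach epithelium, had 252 and 248 CPM in Smad4 Knockout and 254 and 255 CPM in Control. Of 7 intestinal markers 6 had counts, with Fabp1 at 0. Their sum was higher in both Smad4 Knockout libraries, at 458 and 689 CPM, than in the Control libraries, at 368 and 232 CPM. Lgals4 made up most of that sum, with 305 and 483 CPM in Smad4 Knockout and 260 and 170 CPM in Control. Cdh17 had 73.2 and 113 CPM in Smad4 Knockout and 29.2 and 15.6 CPM in Control. Adjusted p-values for Lgals4 and Cdh17 were 0.691 and 0.677 in edgeR and 0.0385 and 2.10e-09 in DESeq2. Cdx2 and the barely detected Cdx1 were also higher without overlap, while Vil1 and Muc2 overlapped by CPM. The part of these gastric and intestinal markers in the values of Lgr4, Rnf43, Axin2 and Sp5 was not tested. Fibroblast markers summed to 2.00 and 1.10 CPM in Smad4 Knockout and 2.65 and 3.70 CPM in Control, with Pdgfrb and Lum at 0. In such bulk libraries, fewer cells expressing a gene and less of its RNA per cell cannot be told apart.

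The windows at the transcription starts of the genes whose groups did not overlap are shown, because the factors of both pathways read short DNA words there. RefSeq windows on GRCm38.p6, each reaching from 250 bases before a start to 50 after it, were found for 6 of the 10 genes, 8 windows in all; no window was matched for Lgr5, Notum, Znrf3 or Sox9. Axin2 and Sp5, lower in Smad4 Knockout, come first, on chr11:108920099-108920398 and chr2:70474673-70474972, both on the plus strand. The Axin2 window lies inside the span of the gene, which begins at 108917828, and does not reach that outermost start. Lgr4 and Rnf43, higher in Smad4 Knockout, follow, on chr2:109917397-109917696 and chr11:87662837-87663136, both on the plus strand. Capitals mark TCAAAG, a form of the core that TCF/LEF factors bind, or CAGAC, letters that Smads bind. Each is also marked as read on the other strand, CTTTGA and GTCTG, and other forms were not searched for.
Axin2: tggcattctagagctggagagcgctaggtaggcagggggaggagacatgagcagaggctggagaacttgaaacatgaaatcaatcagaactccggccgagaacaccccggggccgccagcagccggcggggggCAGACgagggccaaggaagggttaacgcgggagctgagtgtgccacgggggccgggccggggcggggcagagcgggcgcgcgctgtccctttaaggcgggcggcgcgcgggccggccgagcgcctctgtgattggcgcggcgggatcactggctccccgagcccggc
Sp5: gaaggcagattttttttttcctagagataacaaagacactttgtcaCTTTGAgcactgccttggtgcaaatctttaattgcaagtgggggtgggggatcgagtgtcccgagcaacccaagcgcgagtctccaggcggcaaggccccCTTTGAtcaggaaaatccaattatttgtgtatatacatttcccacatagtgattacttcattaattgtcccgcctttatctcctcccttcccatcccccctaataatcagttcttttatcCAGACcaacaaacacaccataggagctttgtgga
Lgr4: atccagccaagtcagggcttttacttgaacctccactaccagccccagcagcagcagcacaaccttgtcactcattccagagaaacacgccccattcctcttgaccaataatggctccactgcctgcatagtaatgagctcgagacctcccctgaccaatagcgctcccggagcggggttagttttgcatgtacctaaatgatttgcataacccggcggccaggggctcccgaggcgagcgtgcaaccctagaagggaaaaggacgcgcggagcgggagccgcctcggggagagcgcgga
Rnf43: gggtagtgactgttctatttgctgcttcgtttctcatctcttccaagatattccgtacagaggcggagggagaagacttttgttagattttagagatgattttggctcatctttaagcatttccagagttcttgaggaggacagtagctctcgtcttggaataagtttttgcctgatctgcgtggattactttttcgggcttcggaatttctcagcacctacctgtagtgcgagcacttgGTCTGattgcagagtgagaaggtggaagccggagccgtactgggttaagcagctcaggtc
The Sp5 window held TCAAAG 2 times, both as CTTTGA on the printed strand, and it was the only 1 of the 8 windows to hold it, against 16% of all 32851 windows in the table. CAGAC was found in 5 of the 8 windows, in Axin2, Sp5, both windows of Rnf43 and 1 of the 2 windows of Tcf7, against 49.6% of all windows. The 2 words share no letters by overlap in these windows. A match is a run of letters and not a shown binding site. The windows also differ in base composition, with 70.0% G or C in Axin2, 58.3% in Lgr4, 46.7% in the printed Rnf43 window and 45.0% in Sp5, against a median of 52.7% over all windows.

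Axin2 lies on chromosome 11, from 108917828 to 108950783, and encodes the scaffold that holds the beta-catenin destruction complex together, itself a widely used readout of Wnt signalling. It had 3.42 and 4.10 CPM in Smad4 Knockout, against 4.43 and 4.97 CPM in Control, from 296 and 397 counts in Smad4 Knockout and 434 and 461 in Control. Both Smad4 Knockout libraries were below both Control libraries, by a narrow margin. The log2 fold change was -0.32 (SE 0.22, 95% interval -0.87 to 0.23) with an adjusted p of 0.884, so the difference did not pass the test.

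Nkd1, which binds Dishevelled and dampens the signal, lies on chromosome 8, from 88521342 to 88594887. It was at the edge of detection, with 8 and 30 counts in Smad4 Knockout and 0 and 19 in Control, or 0.0926 and 0.310 CPM in Smad4 Knockout and 0 and 0.205 CPM in Control. The groups overlapped, and the count of 0 in Control 1 allows a level of up to 0.0306 CPM, for counting error only. Its log2 fold change was 0.97 (SE 1.77), with a 95% interval of -3.37 to 5.31 and an adjusted p of 0.991, so a large difference either way could not have been seen at this depth.

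Notum, the secreted enzyme that inactivates Wnt ligands, lies on chromosome 11, from 120653788 to 120661193. It had 1.09 and 1.91 CPM in Smad4 Knockout and 1.47 and 0.928 CPM in Control. Smad4 Knockout 2 was the highest and Control 2 the lowest, and the groups overlapped. The log2 fold change was 0.32 (SE 0.44, 95% interval -0.75 to 1.39, adjusted p 0.976).

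The ubiquitin ligases Rnf43 and Znrf3 act on the same receptors, but their values did not run in parallel. Rnf43 (chromosome 11, from 87663087 to 87735539) had 21.7 and 23.3 CPM in Smad4 Knockout, against 15.4 and 20.5 CPM in Control. Both Smad4 Knockout libraries were higher, though Smad4 Knockout 1 and Control 2 lay close together. The log2 fold change of Rnf43 was 0.33 (SE 0.17, 95% interval -0.10 to 0.76) with an adjusted p of 0.840. Rnf43 overlaps 1110028F11Rik by 5804 bases, and since the strand setting of the counting is not known here, their reads cannot be told apart. That gene had 0.498 and 1.39 CPM in Smad4 Knockout and 0.388 and 0.615 CPM in Control, far below Rnf43.

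Znrf3 (chromosome 11, from 5276329 to 5444847) had 36.5 and 24.3 CPM in Smad4 Knockout and 28.5 and 37.1 CPM in Control. The highest library was Control 2 and the lowest Smad4 Knockout 2, and the ranges of the groups overlapped between 28.5 and 36.5 CPM. Its log2 fold change was -0.11 (SE 0.23, 95% interval -0.67 to 0.46, adjusted p 0.995). In deposited TPM, which is scaled by transcript length, the ratio of Rnf43 to Znrf3 was 0.944 and 1.54 in Smad4 Knockout and 0.891 and 0.894 in Control. The length that count and TPM together imply for Znrf3 was 6882 to 7144 bases. Its longest GENCODE transcript has 6311 bases, so these ratios are approximate. By these values Rnf43 exceeded Znrf3 only in Smad4 Knockout 2, among these 4 libraries.

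Lgr4 (chromosome 2, from 109917647 to 110014257), the broadly expressed R-spondin receptor, had 91.3 and 97.7 CPM in Smad4 Knockout, against 73.1 and 70.3 CPM in Control. Smad4 Knockout averaged 94.5 ± 4.55 CPM and Control 71.7 ± 1.98 CPM (SD, n = 2 each), so the gap between the groups exceeded the spread within each. The log2 fold change was 0.40 (SE 0.10, 95% interval 0.15 to 0.65), with an unadjusted p of 0.00801 that became 0.677 after adjustment over all genes in edgeR and 0.134 in DESeq2. The smallest two-sided p that an exact permutation of 2 against 2 libraries can give is 0.333. In TPM, Lgr4 had 30.8 and 30.7 in Smad4 Knockout and 22.5 and 23.1 in Control, the same order.

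Lgr5 (chromosome 10, from 115450314 to 115587780), the stem-cell receptor of the same family, had 2.86 and 1.34 CPM in Smad4 Knockout and 1.67 and 2.90 CPM in Control. A high and a low library stood in each group, and the log2 fold change was -0.13 (SE 0.47, 95% interval -1.27 to 1.02, adjusted p 0.995). The interval leaves room for more than a doubling of either sign. A930009A15Rik, which lies antisense within Lgr5, had no count in any library. The TPM ratio of Lgr4 to Lgr5 was 29.8 and 68.1 in Smad4 Knockout and 40.8 and 22.6 in Control, so Lgr4 was the main receptor of the pair at the RNA level in all 4 libraries.

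**Figure D2:**
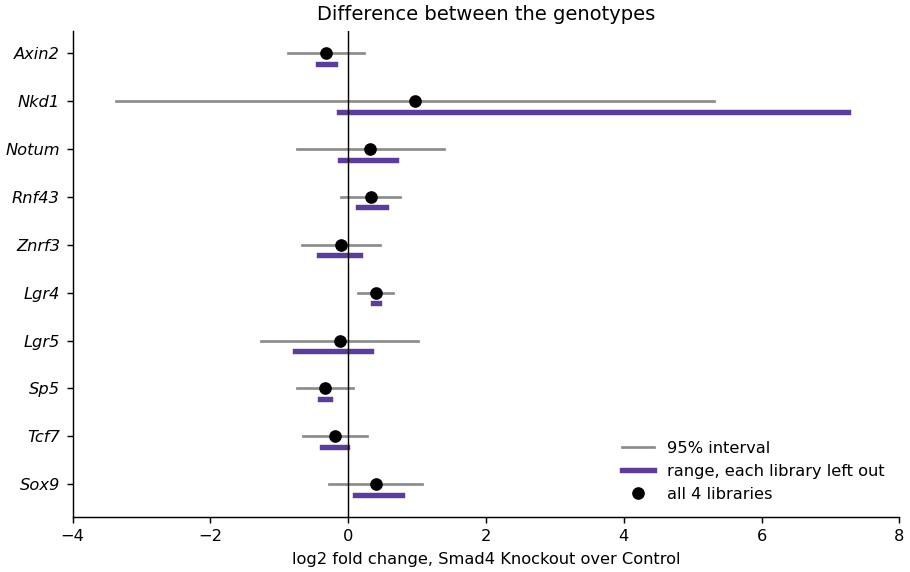
Log2 fold change of Smad4 Knockout over Control for each gene (black points, all 4 libraries), with the 95% interval from the edgeR fit in grey and the range obtained when each library was left out in turn in purple. Only the interval of Lgr4 clears 0 before adjustment, and that of Nkd1 is the widest.

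Sp5 (chromosome 2, from 70474923 to 70477726) encodes a zinc-finger transcription factor that is itself a direct Wnt target. It had 8.08 and 7.35 CPM in Smad4 Knockout, against 9.66 and 9.88 CPM in Control. Both Smad4 Knockout libraries were lower, with means of 7.71 ± 0.516 CPM in Smad4 Knockout and 9.77 ± 0.160 CPM in Control (SD, n = 2 each). The log2 fold change was -0.34 (SE 0.17, 95% interval -0.75 to 0.06) with an adjusted p of 0.828.

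Sox9 (chromosome 11, from 112782210 to 112787757), a transcription factor of progenitor cells, had 12.4 and 9.66 CPM in Smad4 Knockout and 6.40 and 10.4 CPM in Control. Smad4 Knockout 1 was the highest and Control 1 the lowest, but Control 2 was above Smad4 Knockout 2. The log2 fold change was 0.40 (SE 0.27, 95% interval -0.28 to 1.07, adjusted p 0.884), as large as that of Lgr4 with a wider error. Leaving out Control 1 brought it to 0.10 and leaving out Control 2 to 0.79.

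Tcf7 (chromosome 11, from 52246527 to 52283383) encodes TCF1, a DNA-binding partner of beta-catenin that is also made in short forms lacking the beta-catenin binding part. It had 15.8 and 12.3 CPM in Smad4 Knockout and 14.5 and 17.6 CPM in Control. The groups overlapped, with a log2 fold change of -0.19 (SE 0.19, 95% interval -0.65 to 0.27, adjusted p 0.950), and from -0.38 to -0.012 when each library was left out. In TPM the order was different, with 7.82 and 4.31 in Smad4 Knockout and 6.19 and 3.34 in Control. Control 2 was thus the highest library by counts and the lowest by TPM, and the log2 fold change on the log2(TPM + 1) scale was 0.29, of the other sign.

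That gap was described by the length that a count and a TPM together imply, scaled on genes with a single transcript. For Tcf7, for which the files list 12 transcripts, the implied length was 3448 and 4541 bases in Smad4 Knockout and 3655 and 8760 bases in Control. The GENCODE reference lists 2 Tcf7 transcripts of at most 2471 bases, below the value in every library, so these figures compare libraries and cannot be read as true transcript lengths. Control 2 stood apart from the other 3 libraries, and the largest value was 2.54 times the smallest. Among 8861 genes with several transcripts, 0.181% had a ratio at least that large, and the median was 1.02. The other 7 genes with enough counts had nearly the same implied length in every library. Of these, only Lgr5 lay below its longest GENCODE transcript. Znrf3 lay furthest above its own, with 6882 to 7144 bases against 6311. The test above rests on the counts. Tcf7 also overlaps Skp1 by 332 bases in RefSeq, and Skp1 had 452 and 453 CPM in Smad4 Knockout and 485 and 439 CPM in Control, many times the level of Tcf7; whether shared reads move with the Tcf7 value was not tested.

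**Figure D3:**
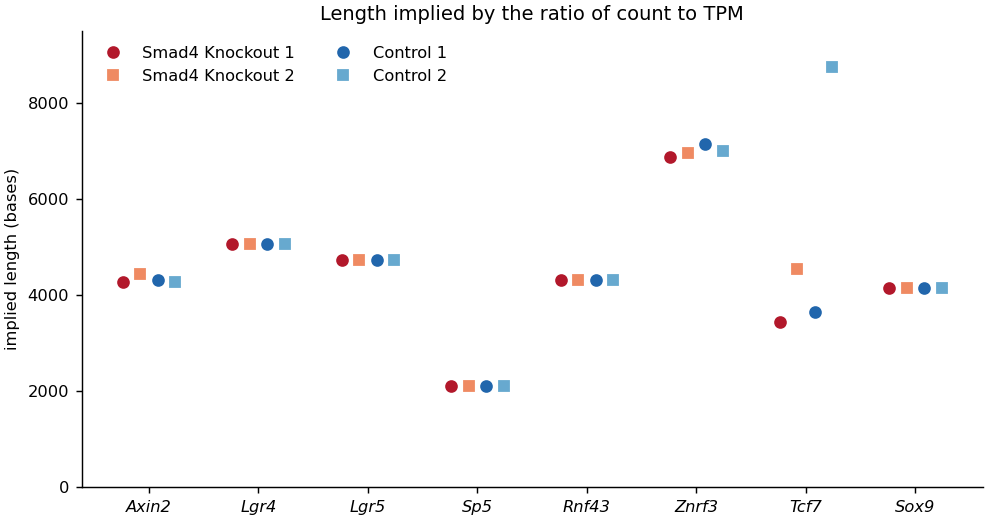
Length in bases implied by the ratio of count to TPM (linear axis from 0) for the 8 genes with enough counts, with the Smad4 Knockout libraries left of the Control libraries for each gene. Tcf7 is at 8760 bases in Control 2 and between 3448 and 4541 in the other 3 libraries, all above the 2471 bases of its longest GENCODE transcript.

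Per transcript length, Lgr4 was the most abundant of the 10 genes, above all others in every library and at percentile 72.9 of detected protein-coding genes. Rnf43, Znrf3, Sp5, Tcf7 and Sox9 followed, each with a range over the 4 libraries that overlapped that of its neighbour. Sox9, with at most 5.12 TPM, lay wholly below Rnf43, Znrf3 and Sp5, which had at least 5.54 TPM. Tcf7 overlapped all 4 of the others, but its implied lengths, 3448 to 8760 bases, exceeded its longest GENCODE transcript of 2471 bases. Its TPM and its place in this order are therefore uncertain. Axin2 stood below Sox9 without overlap, with 1.37 and 1.47 TPM in Smad4 Knockout and 1.60 and 1.94 TPM in Control. Notum and Lgr5 came next and overlapped each other, with 0.697 and 1.15 TPM for Notum in Smad4 Knockout and 0.860 and 0.579 TPM in Control. Lgr5 had 1.03 and 0.451 TPM in Smad4 Knockout and 0.551 and 1.02 TPM in Control. Nkd1 was lowest, with at most 0.112 TPM, and was listed at 0 in Control 1.

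**Figure D4:**
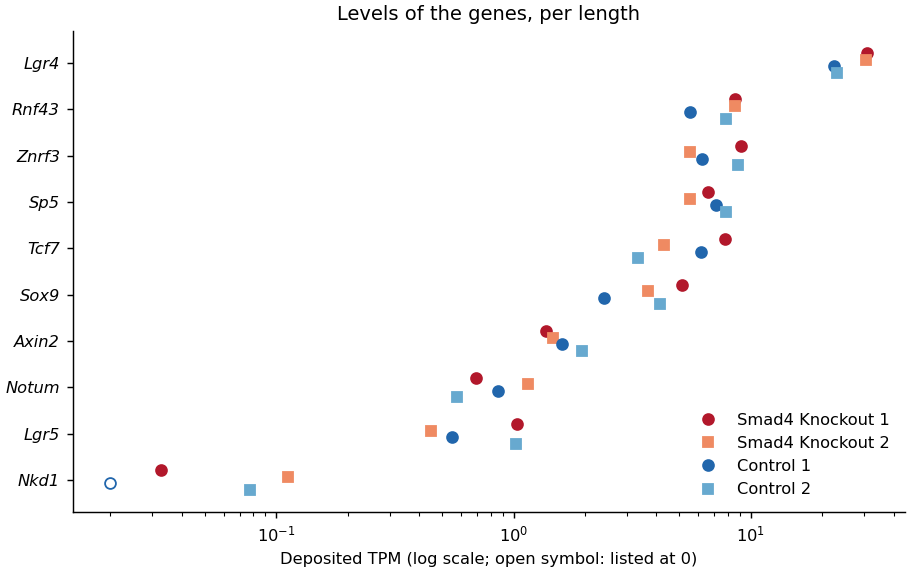
Deposited TPM (log scale) of the 10 genes in each library, ordered by mean, with the Smad4 Knockout libraries drawn above the Control libraries; the open symbol marks a value listed at 0. Lgr4 stands apart at 22.5 TPM or more, Rnf43, Znrf3 and Sp5 lie above Sox9, and Nkd1 is lowest. The place of Tcf7 is uncertain, because its implied lengths exceed its longest GENCODE transcript.

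By CPM, the order of the libraries within a group differed between genes. Lgr5, Znrf3, Sp5, Tcf7 and Sox9 were all higher in Smad4 Knockout 1 than in Smad4 Knockout 2, and all higher in Control 2 than in Control 1. Notum and Lgr4 ran the other way in both groups. Axin2, Nkd1 and Rnf43 were higher in Smad4 Knockout 2 and in Control 2. Some of these differences were small, as for Sp5 in Control 1 and Control 2, at 9.66 and 9.88 CPM. In TPM the order reversed for Tcf7 in Control, at 6.19 and 3.34, and for Lgr4 in Smad4 Knockout, at 30.8 and 30.7. With 4 libraries no likeness between genes was computed, and whether these differences follow the lines or the preparation was not tested.

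Of 91 further Wnt pathway genes, 69 were tested and 17 had no count in any library. Neither edgeR nor DESeq2 called any, and 10 had an unadjusted p under 0.05, 3 higher and 7 lower in Smad4 Knockout, or 14.5% against 6.36% of all genes. Groups did not overlap in 33, or 47.8% against 36.9% of all genes, with 8 higher (11.6% against 18.2%) and 25 lower (36.2% against 18.6%). The median log2 fold change of these genes was -0.07, against -0.0026 over all genes. Overlap of groups is judged by CPM here and below. The lists were chosen with earlier results of these data known, and their genes share the same 4 libraries. The shares given here and for each role are therefore not a test of the lists. The genes named from here on follow a rule on level and p, except Wnt3a, Wnt4, Wnt7a, Wnt10a, Wnt11, Tnfrsf19 and Olfm4, which were chosen after their values were seen.

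Of 19 Wnt ligand genes 12 were tested, and 7 of these were lower and 1 higher in Smad4 Knockout without overlap (58.3% and 8.33%, against 18.6% and 18.2% of all genes), with a median log2 fold change of -0.46. The higher one was Wnt4, with 13.0 and 14.9 CPM in Smad4 Knockout, against 9.63 and 11.8 CPM in Control (adjusted p 0.819). Wnt7b, the most abundant ligand by TPM, had 236 and 204 CPM in Smad4 Knockout, against 294 and 287 CPM in Control, a log2 fold change of -0.40 (SE 0.11, unadjusted p 0.0115, adjusted p 0.677). Wnt11, a ligand better known for signalling without beta-catenin, had 7.35 and 3.87 CPM in Smad4 Knockout, against 12.1 and 11.2 CPM in Control. Wnt7a had 33.6 and 21 CPM in Smad4 Knockout against 45.8 and 43.2 CPM in Control, and Wnt10a had 55.2 and 49.0 CPM in Smad4 Knockout against 67.2 and 62.1 CPM in Control. These 4 ligands were lower in both Smad4 Knockout libraries, and none passed the test. Wnt3a, the ligand of the conditioned medium, had no count in any library. Wls, the carrier that takes Wnt ligands to the cell surface, had 155 and 138 CPM in Smad4 Knockout and 172 and 169 CPM in Control (adjusted p 0.820).

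R-spondins, the ligands of Lgr4 and Lgr5, were close to absent: 2 of the 4 genes had no count, none was tested, and Rspo3 had 0 and 0 CPM in Smad4 Knockout and 0.0817 and 0.151 CPM in Control. Among 13 receptors 3 were higher and 3 lower without overlap, or 23.1% each, against 18.2% and 18.6% of all genes. Lgr6, the third relative of Lgr4 and Lgr5, had 1.34 and 1.38 CPM in Smad4 Knockout, against 2.92 and 2.51 CPM in Control, a log2 fold change of -0.995 (SE 0.28, adjusted p 0.677). Fzd6, the most abundant Frizzled by TPM, had 88.8 and 76.4 CPM in Smad4 Knockout and 90.1 and 98.6 CPM in Control (adjusted p 0.873). Of 15 inhibitors 7 had no count and 7 were tested, and Kremen1, the Dkk receptor, had 67.5 and 54.1 CPM in Smad4 Knockout and 71.3 and 75.4 CPM in Control (adjusted p 0.832).

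In the destruction complex and the cytoplasmic relay, 9 of 16 genes were lower in Smad4 Knockout without overlap by CPM and none higher. That is 56.2% lower against 18.6% of all genes, with a median log2 fold change of -0.13 over the 16 genes. In TPM, some of the 9 genes overlapped. Axin1, the constitutive counterpart of Axin2, had 108 and 84.7 CPM in Smad4 Knockout, against 125 and 131 CPM in Control, a log2 fold change of -0.41 (SE 0.14, adjusted p 0.726) that moved to -0.595 when Smad4 Knockout 1 was left out, and to -0.225 when Smad4 Knockout 2 was. Ctnnb1, which encodes beta-catenin, had 2086 and 2174 CPM in Smad4 Knockout and 2173 and 1946 CPM in Control, and the groups overlapped. In TPM both Smad4 Knockout libraries were higher for Ctnnb1, with 984 and 954 against 933 and 894 in Control. Among 10 nuclear partners tested the median was 0.08. Pygo2, a beta-catenin coactivator, had 67.1 and 67.8 CPM in Smad4 Knockout and 64.5 and 73.8 CPM in Control, and Tle2, a Groucho-family corepressor, had 1.04 and 1.20 CPM in Smad4 Knockout and 0.694 and 0.885 CPM in Control (adjusted p 0.910).

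The other 9 target or stem-marker genes tested had a median log2 fold change of -0.05. Ascl2, a Wnt-driven stem-cell factor of the intestine, had 0.683 and 1.03 CPM in Smad4 Knockout, against 0.194 and 0.151 CPM in Control, a log2 fold change of 2.30 (SE 0.60, unadjusted p 0.00895, adjusted p 0.677). Tnfrsf19, a receptor that is also a Wnt target, had 27.9 and 47.6 CPM in Smad4 Knockout against 24.1 and 19.0 CPM in Control. Olfm4, a stem-cell marker of the intestine, had 4.20 and 21.1 CPM in Smad4 Knockout and 5.69 and 1.41 CPM in Control, with 1 high library and overlapping groups. Ccnd1, the cell-cycle gene often quoted as a Wnt target, had 742 and 725 CPM in Smad4 Knockout and 793 and 776 CPM in Control (adjusted p 0.943). The markers thus differed in direction among themselves, and none passed the test.

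**Figure D5:**
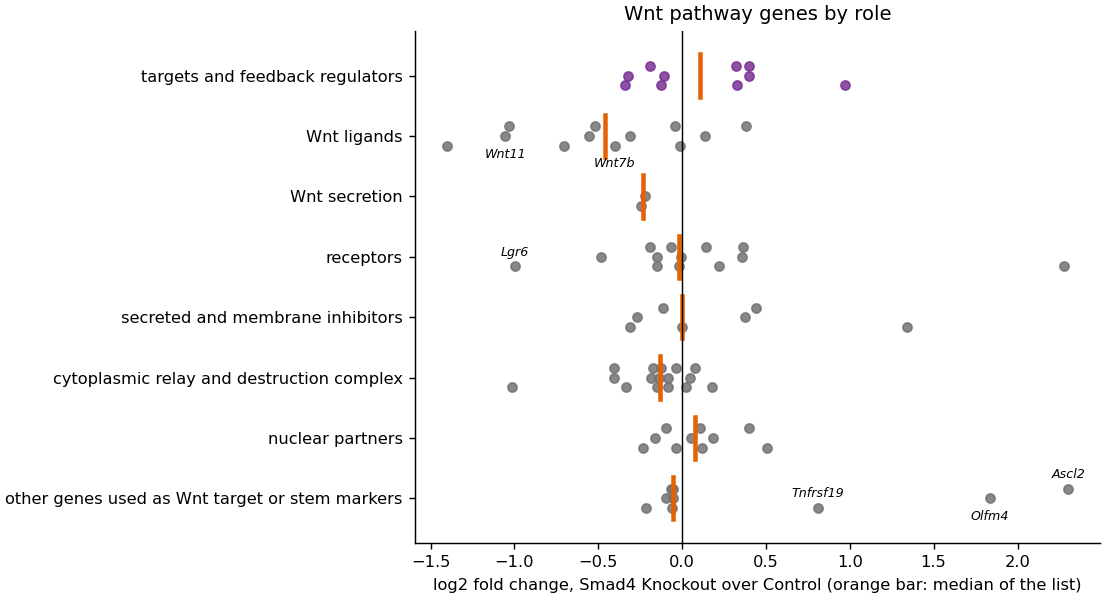
Log2 fold change of Smad4 Knockout over Control for the 10 targets and feedback regulators (purple) and for the tested genes of each other role in the pathway (grey), with the median of each list as an orange bar. The ligand median is the lowest, at -0.46, that of the 10 genes is 0.11, and no gene shown passed the test.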

How the data were processed

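RNA from 4 gastric organoid libraries was sequenced from a stranded, ribosome-depleted total RNA kit, per the labels' protocols. The authors deposited gene tables of estimated counts, FPKM and TPM on mm10. Trimmomatic, StringTie 2.1.3b, HISAT2 2.1.0 and bcl2fastq 2.20.0 were used, per the submitters' processing notes. The sources used here do not give the counting tool, its strand setting or its filters. The deposited FPKM were not used in a test, and 1 column of another sample was left out. Control 2 was matched to its columns by title, to which the files add a 2.

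The deposited estimated counts, all whole numbers, were tested with edgeR 4.0.16 (R 4.3.3; TMM, filterByExpr with a minimum count of 10, quasi-likelihood F-test, 2 against 2 libraries, no covariate), adjusted by Benjamini-Hochberg over 18115 genes at 0.05. CPM use the TMM factors. Alternatives were relative log expression size factors, no filter, DESeq2 1.42.0, limma 3.58.1 on log2(TPM + 1) and log2(TPM + 0.1) for genes of at least 1 TPM in 2 libraries, and each library left out. Replicate numbers pair nothing. Non-overlap by TPM was added after seeing the data. The fit was run on simulated data with 200 changed genes. Their dispersion was set lower than that of these data, so the run does not show what could be detected here. The common dispersion of 0.068 is a coefficient of variation of 26.1%.

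Implied length is the count over the TPM, scaled in each library on single-transcript genes, for genes with at least 100 counts. Gene coordinates and promoter windows are RefSeq's, on GRCm38.p6. Of the further pathway genes, the text names those called and, for each role, the gene with the highest mean TPM and the tested gene with the smallest p. The members, lists and tests were chosen with earlier results of these data known.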

Additional observations from a re-analysis of the deposited data

How the results depend on the processing

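No gene of the 10, and none of the other Wnt pathway genes, passed an adjusted p of 0.05 under the alternatives with all 4 libraries, nor in the fits that leave 1 out. Of 86 alternative values for the 10 genes 77 kept their sign and 9 reversed; Nkd1 and Notum were below the TPM filter. Leaving out each library in turn gave ranges of -0.77 to 0.33 for Lgr5, -0.14 to 7.25 for Nkd1, -0.13 to 0.69 for Notum and -0.43 to 0.17 for Znrf3, which include both signs, as they do for Ctnnb1 (-0.030 to 0.13) and Pygo2 (-0.13 to 0.063). The ranges were 0.36 to 0.45 for Lgr4, -0.44 to -0.20 for Axin2, -0.41 to -0.26 for Sp5, 0.14 to 0.55 for Rnf43, -0.38 to -0.012 for Tcf7 and 0.095 to 0.79 for Sox9. On log2(TPM + 1) and log2(TPM + 0.1), Tcf7 was at 0.29 and 0.35 and Pygo2 at 0.013 and 0.014, with the sign reversed; the cause was not tested. DESeq2 called 131 genes where edgeR called 0, Smad4 (-0.88) among them. Leaving out each library gave between 0 and 92 edgeR calls over all genes, the 92 without Smad4 Knockout 1; in each such fit a lone library is assumed to vary like the other group. No paired analysis was possible because the labels give no replicate numbers, and the numbers used follow accession order. With 2 lines a group, only differences well above the spread between lines could pass, and Nkd1 in particular was limited by its few counts.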
